A study of Mus musculus with 4 samples.

Results

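Sall1, Sall2, Sall3, Sall4 and Zbtb16 were measured by RNA sequencing in cells of the mouse hindlimb bud at embryonic day 11.5. They are 5 of the 25239 gene symbols in the deposited count table and were taken by symbol, and all 5 passed the filter on low counts. The embryos were of the FVB strain and wild-type apart from a transgene inserted at H11, where the human ZRS limb enhancer carrying 404G>A, with an hsp68 promoter, drives the fluorescent reporter mCherry. Both groups carry this transgene. The 2 anterior libraries hold cells sorted for mCherry fluorescence, and the 2 central libraries hold cells sorted for lack of it, after dissection of each domain. Position in the bud and reporter activity differ together between the groups and cannot be told apart. The labels do not say whether the libraries of a group came from separate embryos, so p-values measure only the spread between these libraries, which may be technical.

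Sall genes encode nuclear zinc finger proteins related to Drosophila spalt. In people, SALL1 and SALL4 mutations cause syndromes with thumb and radial defects, and in the mouse Sall4 acts with Gli3 in early hindlimb progenitors. Zbtb16 encodes PLZF, a repressor that joins a BTB domain to zinc fingers. Its loss in luxoid mice disturbs hindlimb patterning, and it acts with Gli3 in forming proximal limb cartilage.

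Part of the family shares a short stretch at the start of the protein that recruits the NuRD deacetylase and chromatin remodelling complex, and the coding bases for it are shown because they separate the forms of Sall2 that a gene count adds together. The first 36 coding bases are given for mm10 (GENCODE M21 transcripts, minus strand), with capitals where Sall2-201 and Sall4-201 have the same base.
Sall4-201, exon 1, chr2:168766994-168767029: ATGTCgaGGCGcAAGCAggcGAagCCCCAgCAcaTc
Sall2-201, exon 1, chr14:52328140-52328175: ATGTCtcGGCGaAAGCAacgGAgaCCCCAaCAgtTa
Sall2-202, exon 1, chr14:52316074-52316109: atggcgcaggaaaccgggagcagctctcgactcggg
Sall2-201 and Sall4-201 had the same base at 24 of these 36 positions. Sall2-202 starts at another first exon, and only 15 of its 36 bases matched Sall2-201. The deposited counts are per gene, so Sall2 values below sum both starts. Sall4 has 7 annotated transcripts, and its values are likewise not split by form. Sall4-202 and Sall4-203 start with the bases shown for Sall4-201, while Sall4-206 starts with other bases.

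Library totals were 30080925 to 33257383 counts. The limb mesenchyme factor Prrx1 was abundant in each library, at 19828 to 23901 counts. Prrx1 does not stand for its whole marker list, in which 4 of 8 genes were higher and 2 lower in anterior cells. By edgeR's quasi-likelihood test 22.9% of the 14610 genes tested had an adjusted p under 0.05 and are termed called, 10.7% as higher and 12.3% as lower in anterior cells. Levels are given as CPM, which are counts per 1 M of the library total after TMM scaling.

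All 5 genes passed the test, 3 of them higher and 2 lower in anterior cells. Sall4 rose 2.23-fold, Sall3 1.89-fold and Sall1 1.47-fold. Sall2 was 1.32-fold and Zbtb16 4.19-fold higher in central than in anterior cells. In each case both anterior values were on one side of both central values, which also held for 63.5% of all tested genes. Changes of at least 2-fold were called for 2.34% of tested genes as higher and 6.78% as lower, and Sall4 and Zbtb16 were the members past that size. In such bulk libraries, fewer cells expressing a gene and less RNA per cell cannot be told apart.

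**Figure D1:**
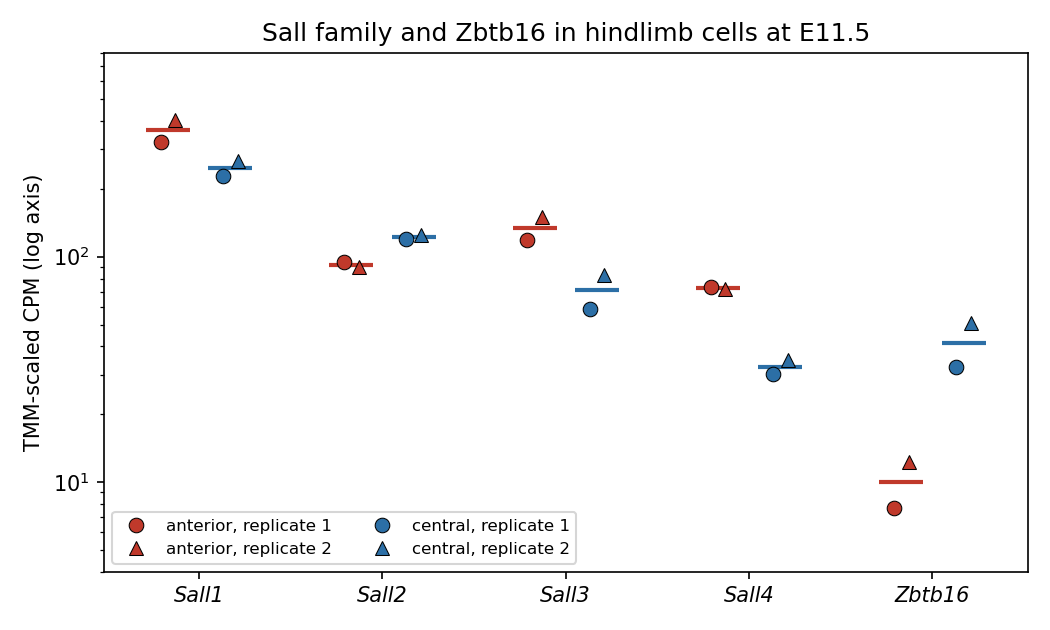
TMM-scaled CPM (log axis) of the 5 genes in each library, with circles for replicate 1, triangles for replicate 2 and bars for the mean of the 2 libraries of a group. Anterior points lie above central points for Sall1, Sall3 and Sall4 and below them for Sall2 and Zbtb16.

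Sall4 encodes the member with the best known part in early limb progenitors and lies at chr2:168748332-168767943 (mm10 in GENCODE M21, minus strand, as for the positions of the other genes). Anterior replicates 1 and 2 had 2448 and 2099 counts, and central replicates 1 and 2 had 932 and 1128. Scaled to depth, these were 73.4 and 71.5 CPM in anterior cells against 30.3 and 34.8 CPM in central cells. The anterior libraries were close to each other and both were more than double the central ones (72.5 ± 1.30 against 32.6 ± 3.24 CPM, SD, n = 2 each). The log2 fold change was 1.15 ± 0.09 (SE, 95% interval 0.94 to 1.37) with an edgeR adjusted p of 6.00e-05, and 1.52% of tested genes had a smaller p. Gm14261 is annotated on the opposite strand, overlaps the span of Sall4 and is not among the counted symbols. The strand setting of the counting is not given in the sources used here. Overlap with Sall4 exons was not examined, so whether reads of Gm14261 entered the Sall4 count is not known.

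Sall3, at chr18:80966376-80986771, encodes a family member expressed in distal limb mesenchyme. Its counts were 3938 and 4410 for anterior cells and 1803 and 2692 for central cells, or 118 and 150 CPM against 58.5 and 83.2 CPM. Replicate 2 was the higher library in both groups, by a ratio of 1.27 in anterior and 1.42 in central cells, and the groups stayed apart. The means were 134 ± 22.8 and 70.9 ± 17.4 CPM (SD, n = 2), and the log2 fold change was 0.92 ± 0.16 (SE, 95% interval 0.55 to 1.29, edgeR adjusted p 0.00441).

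Sall1, the gene of Townes-Brocks syndrome in people, lies at chr8:89027235-89044162 and was the most abundant of the genes. Anterior cells gave 10722 and 11856 counts and central cells 6998 and 8587. In CPM these were 321 and 404 in anterior against 227 and 265 in central cells. The lowest anterior library was above the highest central one, but the gap was smaller than that between the anterior libraries themselves. Between means of 363 ± 58.5 and 246 ± 26.9 CPM (SD, n = 2) the log2 fold change was 0.56 ± 0.11 (SE, 95% interval 0.30 to 0.81, edgeR adjusted p 0.00815).

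Sall2, at chr14:52311172-52328762, is the most diverged vertebrate member and moved in the other direction from the rest of the family. Anterior cells gave 3149 and 2630 counts and central cells 3677 and 4020, or 94.4 and 89.7 CPM against 119 and 124 CPM. The libraries of each group were close, so this smallest of the 5 differences was also the one with the smallest standard error. The means were 92.0 ± 3.37 and 122 ± 3.39 CPM (SD, n = 2), and the log2 fold change was -0.40 ± 0.07 (SE, 95% interval -0.56 to -0.25, edgeR adjusted p 0.00386). A larger absolute log2 fold change was found for 31.2% of tested genes.

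Zbtb16, at chr9:48654297-48836222, was the least abundant member in anterior cells and had the largest difference. Only 257 and 359 counts came from anterior cells, against 995 and 1646 from central cells. These correspond to 7.71 and 12.2 CPM in anterior and 32.3 and 50.8 CPM in central cells. Replicate 2 was higher than replicate 1 by a ratio of 1.59 in anterior and 1.57 in central cells, so the spread was wide within both groups, and the highest anterior value was still below the lowest central one. The log2 fold change was -2.07 ± 0.25 (SE, 95% interval -2.64 to -1.49, edgeR adjusted p 0.00063) between means of 9.97 ± 3.20 and 41.6 ± 13.1 CPM (SD, n = 2). A larger absolute log2 fold change was found for 5.48% of tested genes.

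**Figure D2:**
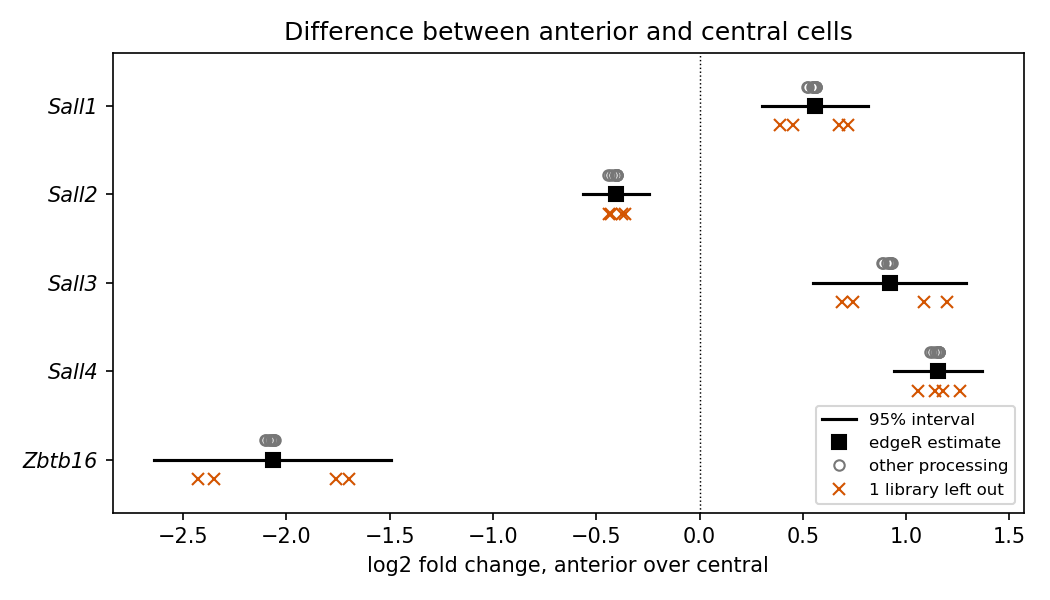
Log2 fold change of anterior over central cells for each gene (square) with its 95% interval (line), the estimates under 9 other processing settings (circles) and the estimates with 1 library left out (crosses). None of the plotted estimates crosses 0. The squares run from Zbtb16 at -2.07 to Sall4 at 1.15, and all plotted estimates from -2.43 to 1.26.

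Levels of different genes were compared as CPM per kb of exon, using the union of annotated exons (5.265 kb for Sall1 to 7.481 kb for Sall3). On this scale Sall1 led in every library, at 61.1 and 76.8 in anterior and 43.2 and 50.4 in central cells. In anterior cells Sall3 (15.8 and 20.1 CPM per kb) and Sall2 (17.4 and 16.5) came next with overlapping values, followed by Sall4 (13.3 and 12.9). Zbtb16 was last there, at 1.46 and 2.32 CPM per kb. In central cells Sall2 was a clear second at a mean of 22.4 ± 0.62 CPM per kb (SD, n = 2). Sall3 (7.83 and 11.1), Zbtb16 (6.12 and 9.63) and Sall4 (5.47 and 6.30) followed, each overlapping its neighbour in that order.

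The summed level of the Sall genes was higher in anterior cells, at 108 and 126 CPM per kb against 78.4 and 90.7 CPM per kb. Sall1 made up a like share of that sum throughout, 56.8% and 60.8% in anterior and 55.0% and 55.6% in central libraries. Sall4 made up 12.3% and 10.2% of the sum in anterior cells and 6.97% and 6.94% in central cells, and Sall3 14.7% and 15.9% against 9.98% and 12.3%. The share of Sall2 was lower in anterior cells, 16.2% and 13.1% in anterior against 28.0% and 25.2% in central cells. The level of Zbtb16 was 1.36% and 1.83% of the Sall sum in anterior cells and 7.80% and 10.6% in central cells. These shares restate the single-gene differences on another scale and were not tested.

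**Figure D3:**
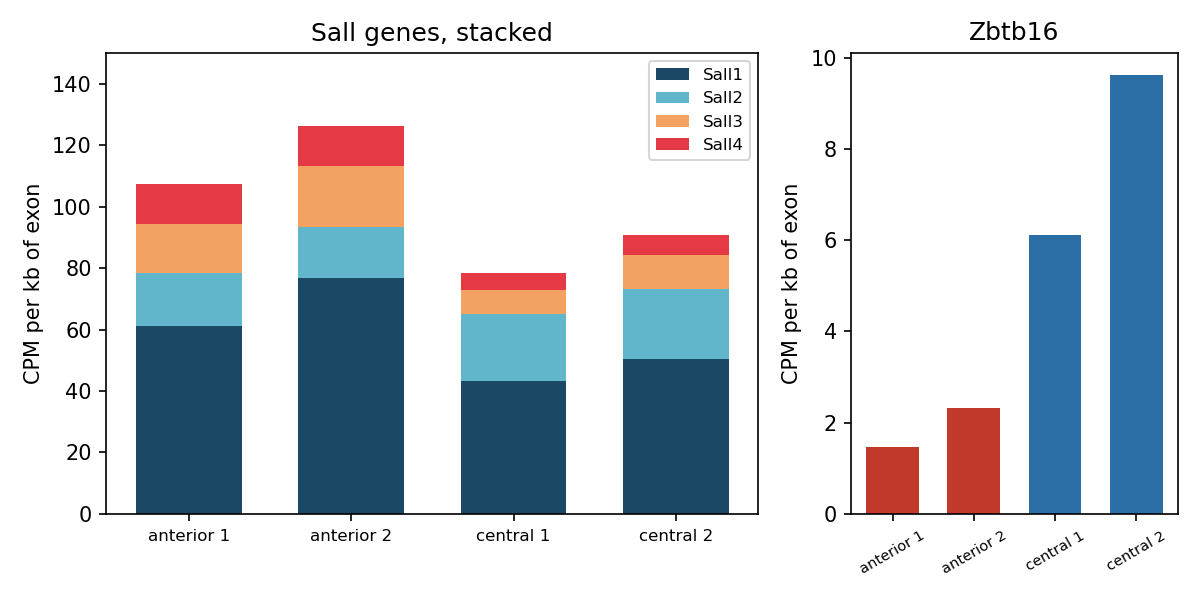
CPM per kb of exon in each library, with the 4 Sall genes stacked at the left and Zbtb16 on its own axis at the right. Sall1 is the largest block in every bar, the Sall2 block is larger in central bars, and Zbtb16 stands at 1.46 and 2.32 in anterior against 6.12 and 9.63 in central libraries.

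The genes that act with Sall4 and Zbtb16 at the start of hindlimb growth moved in both directions. Of 13 early hindlimb genes tested, 2 were called higher and 6 lower in anterior cells (61.5% called, against 22.9% of all tested genes). Their median log2 fold change was -0.69 where that of all tested genes was -0.01. The number called was 7 with a mean count of at least 50 and 10 with no filter. Gli3, the hedgehog pathway factor that acts with both, measured 314 and 379 CPM in anterior against 197 and 199 CPM in central cells (log2 fold change 0.81 ± 0.09 SE, edgeR adjusted p 0.00034), so it was higher where Sall4 was higher and Zbtb16 lower. Fgf10, the mesenchymal signal that starts limb outgrowth, was also higher (log2 fold change 1.34). The hindlimb selector Pitx1 and its target Tbx4 had overlapping or nearly equal levels, at 442 ± 11.2 against 456 ± 37.5 and 231 ± 9.21 against 254 ± 19.4 CPM (SD, n = 2), and were not called (edgeR adjusted p 0.707 and 0.223). Without central replicate 1, Tbx4 was called lower, at -0.21 on the log2 scale (edgeR adjusted p 0.0266).

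Isl1, a factor of hindlimb initiation, fell by 3.09 on the log2 scale, with 152 and 20 counts in anterior and 679 and 765 in central libraries. The anterior libraries differed widely, and without anterior replicate 1 or 2 the log2 fold change was -5.05 or -2.32. Tbx5, the forelimb factor, was near its floor, with 0 and 2 counts against 82 and 44 (edgeR adjusted p 0.0024), and no fold is given.

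Zbtb16 and Sall2 shared their direction with the proximal limb genes. Of 8 such genes 7 were called, all lower in anterior cells, with a median log2 fold change of -3.51. Irx3 and Irx5, Iroquois factors of early hindlimb progenitors, fell furthest, from 57.6 ± 12.1 to 1.08 ± 0.76 and from 28.7 ± 9.90 to 0.45 ± 0.55 CPM (SD, n = 2), log2 fold changes of -5.69 and -5.91. Their estimates moved to -6.71 and -8.63 without anterior replicate 1, and that of Irx5 to -5.08 without anterior replicate 2. Meis1 and Meis2, which mark the proximal domain, had log2 fold changes of -4.46 and -4.27. They were -5.62 and -5.97 without anterior replicate 1 and -3.86 and -3.54 without anterior replicate 2. Bmpr1b, the BMP receptor of limb cartilage, fell by 1.33 (edgeR adjusted p 0.00691). Lower levels in anterior cells were not particular to the proximal genes. They were called for 12.3% of all tested genes and for most of the myogenic, ectoderm, endothelial and cartilage markers given below. A tie between Zbtb16 and the proximal genes was not tested.

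Distal genes lay mostly on the side of Sall1, Sall3 and Sall4, as did the 10.7% of all tested genes called higher in anterior cells. Of 13 digit and distal patterning genes, 9 were called higher and 1 lower in anterior cells (median log2 fold change 0.78). With library size alone or upper-quartile factors, 8 were called higher. Msx1 and Msx2, homeobox targets of BMP signalling, rose most, by 3.26 ± 0.12 and 2.80 ± 0.13 (SE). Grem1, a secreted BMP antagonist, was called lower at -0.54 (edgeR adjusted p 0.0404), a call lost without anterior replicate 1 (-0.36, adjusted p 0.162) and without central replicate 2 (-0.33, adjusted p 0.123).

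Of the 8 FGF response genes 8 were called higher, with a median of 1.38, where 10.7% of all tested genes were. Not all of these calls were kept without anterior replicate 2. Spry1 and Spry4, feedback inhibitors of receptor tyrosine kinase signalling, rose by 2.02 and 2.01, and the MAP kinase phosphatase gene Dusp6 by 1.43 ± 0.10 (SE, edgeR adjusted p 2.33e-05). Of 8 Wnt response genes, 4 were called higher and 2 lower (75% called, against 22.9% of all tested genes). The nuclear effectors Lef1 and Tcf7 rose by 1.40 and 1.32 and the feedback gene Axin2 by 0.64 (edgeR adjusted p 0.00067). Sp5 fell by 1.02, a call lost with DESeq2 (adjusted p 0.0527), with limma-voom (0.0517), and without anterior replicate 1 (0.0868), anterior replicate 2 (0.156) or central replicate 2 (0.191). The other fall was that of Rnf43, a Wnt receptor ubiquitin ligase gene named after its values were seen, with 7 and 7 counts in anterior against 16 and 81 in central libraries (log2 fold change -2.74, edgeR adjusted p 0.0412). Its call was lost with limma-voom (adjusted p 0.133) and without anterior replicate 1 (0.0894), anterior replicate 2 (0.0827) or central replicate 2 (-1.20, adjusted p 0.513), so no Wnt response gene was called lower in those 4 fits.

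**Figure D4:**
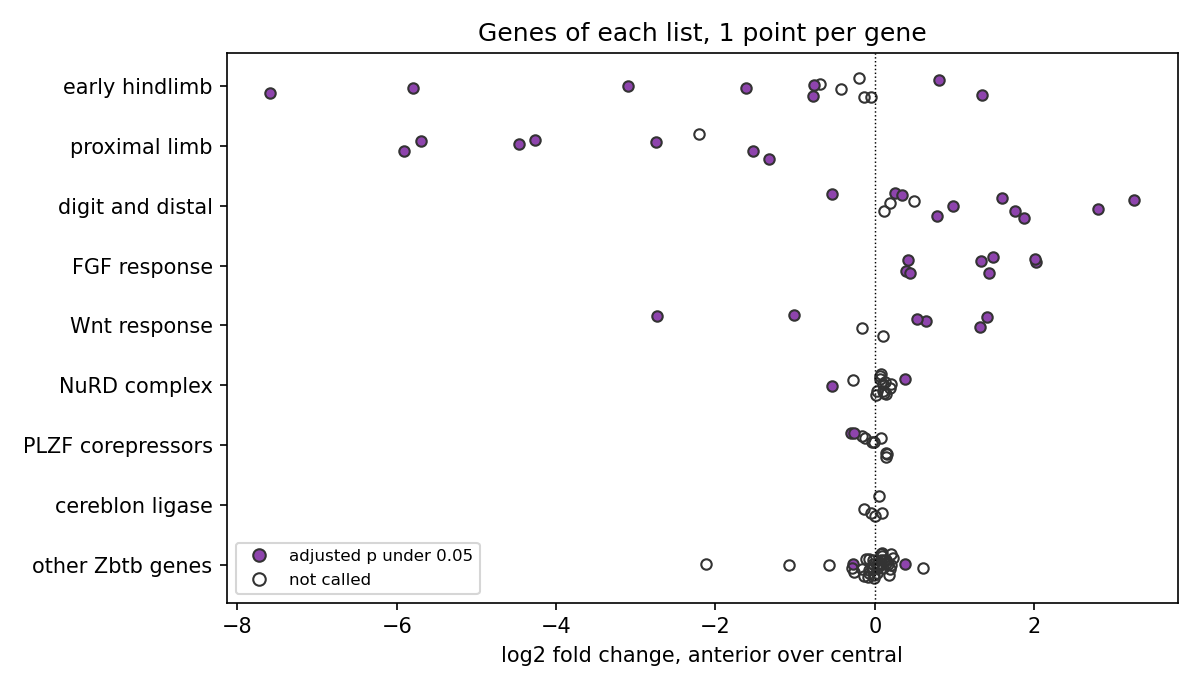
Log2 fold change of anterior over central cells for each tested gene of 9 lists, 1 point per gene, filled where the edgeR adjusted p was under 0.05 (vertical scatter within a list carries no meaning). Proximal genes lie at -1.33 or below, FGF response genes at 0.39 or above, and the NuRD, PLZF corepressor, cereblon and other Zbtb genes mostly near 0.

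The genes for NuRD and for PLZF corepressors lay mostly near 0, with median log2 fold changes of 0.098 and -0.025. The difference of the NuRD gene Chd3, given below, was larger than that of Sall2 (-0.40). Of 15 NuRD genes, the complex that Sall proteins recruit, 2 were called (13.3%, against 22.9% of all tested genes). The helicase gene Chd3 fell from 610 ± 19.7 to 419 ± 21.5 CPM (SD, n = 2), a log2 difference of -0.54 ± 0.07 (SE) with an edgeR adjusted p of 0.00065, while its paralogue Chd4 measured 1109 ± 20.6 and 1097 ± 68.9 CPM (adjusted p 0.898). Gatad2a was called higher at 0.38, but not without anterior replicate 2 (0.33, adjusted p 0.0627). The deacetylase genes Hdac1 and Hdac2 and the histone chaperone Rbbp4 had log2 fold changes of 0.10, 0.07 and 0.03 and were not called. The number of NuRD genes called was 1 without anterior replicate 2, 3 without central replicate 1 and 4 without central replicate 2.

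Of 10 genes for corepressors and partners of PLZF, 2 were called (20%, against 22.9% of all tested genes), both lower by a small amount. Sin3b, a scaffold of the Sin3 deacetylase complex, was lower by -0.30 on the log2 scale and the class II deacetylase gene Hdac5 by -0.26. Both calls were lost without anterior replicate 1 (edgeR adjusted p 0.131 and 0.0825) and without anterior replicate 2 (0.0765 and 0.32). Hdac5 was also lost without central replicate 1 (0.0521) or 2 (0.0665) and with DESeq2 (0.0545). The number called was 0 without either anterior replicate and 3 without central replicate 2. The nuclear receptor corepressor gene Ncor1 had a log2 fold change of 0.14 and was not called (edgeR adjusted p 0.234), except without central replicate 2 (0.26, adjusted p 0.00417).

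In human cells, SALL4 and PLZF are both degraded through the cereblon ubiquitin ligase in the presence of thalidomide. Whether this holds for the mouse proteins was not tested. The 5 genes of that ligase had log2 fold changes of -0.14 to 0.09. None was called by edgeR, DESeq2 or limma-voom, and 0 had an unadjusted edgeR p under 0.05. Crbn, the substrate receptor itself, measured 23.2 and 30.4 CPM in anterior and 30.4 and 28.7 CPM in central cells (log2 fold change -0.14, edgeR adjusted p 0.516).

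Other BTB zinc finger genes gave a family to set Zbtb16 against. The table held 39 further Zbtb genes, of which 38 were tested and 2 were called (5.26%, against 22.9% of all tested genes). Zbtb2 was called higher by 0.38 and Zbtb34 lower by -0.27, both differences far smaller than that of Zbtb16. The call of Zbtb2 was lost without anterior replicate 2 (edgeR adjusted p 0.23) and central replicate 1 (0.0735). That of Zbtb34 was lost without anterior replicate 1 (0.156), anterior replicate 2 (0.235) or central replicate 2 (0.154), with DESeq2 (0.0774) and with its size factors in edgeR (0.0523). With a library left out the number called ran from 0 (without anterior replicate 2) to 3 (without central replicate 1). The log2 fold changes of the other Zbtb genes ran from -2.11 to 0.61. The lowest belonged to Zbtb8b, which was named after its values were seen, had 8 and 4 counts in anterior against 20 and 33 in central libraries and was not called (edgeR adjusted p 0.0525).

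The genes nearest to each member in pattern were found by Euclidean distance between log2(CPM + 0.5) values centred on each gene's mean, over 4 libraries and 12328 candidate genes. With so few libraries many genes lie close, and the distances are descriptions. Sall4 lay nearest to Plekhg3 (distance 0.0445), then to Uap1l1 (0.124) and the small Maf gene Maff (0.125). Sall3 lay nearest to Cecr2, a chromatin remodelling gene (0.0984), Slc46a3 (0.103) and the galectin gene Lgals12 (0.147). Sall1 was nearest to Brd8dc (0.0461), the small Maf gene Mafg (0.0644) and Klf9 (0.0691). For Sall2 the nearest were the DNA repair gene Xrcc5 (0.028), Nckap5 (0.0316) and Fblim1 (0.0338). Zbtb16 had no neighbour so close. Its nearest were the VEGF receptor gene Flt1 (0.251), the sorting receptor gene Sorl1 (0.251) and Npnt, an extracellular matrix ligand of integrins (0.276). Flt1 had only 6 and 12 counts in anterior against 60 and 92 in central libraries. Its log2 fold change of -3.03 was larger than the -2.07 of Zbtb16, and the added 0.5 CPM shrinks differences at such low levels. Of the genes named here, Brd8dc, Klf9, Nckap5 and Slc46a3 were not called (edgeR adjusted p 0.263, 0.0631, 0.271 and 0.078).

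Markers of other cell types moved with the groups and so with each of the differences above. Among all tested genes, 10.7% were called higher and 12.3% lower in anterior cells. Of 7 myogenic genes 7 were lower in anterior cells, with a summed level of 2.35 to 4.17 CPM against 142 to 143 CPM, and Pax7 and Myog were at 0 counts in both anterior libraries. Ectoderm markers were lower in 8 of 9 genes tested (9.95 to 10.2 against 55.2 to 181 CPM summed, Sp6 at 0 in both anterior libraries; 4 genes called with limma-voom), and endothelial markers in 7 of 10 (9.77 to 14.1 against 33.8 to 46.8 CPM). Cartilage genes were lower in 5 and higher in 1 of 8 (365 to 471 against 1220 to 1560 CPM). Schwann and neural crest genes were lower in 2 of 5 tested (10.9 to 14.8 against 24.4 to 29.2 CPM), with Sox10 and Foxd3 at 0 in both anterior libraries and Fabp7 at 0 in all 4, and 1 gene was called with a mean count of at least 50 or with halved counts. Erythroid genes were higher in 7 of 7 tested (3289 to 8388 against 5.59 to 9.08 CPM, Hba-a1 at 0 in every library). With limma-voom 5 erythroid genes were called. Macrophage genes were higher in 3 of 7 (32.8 to 37.6 against 16.5 to 16.6 CPM). With DESeq2, 2 macrophage and 6 endothelial genes were called. With a mean count of at least 50, 2 macrophage, 5 endothelial and 6 myogenic genes were called. The limb mesenchyme list itself had 4 genes higher and 2 lower of 8 (2752 to 2866 against 1867 to 2034 CPM). The part of these cell types in the differences of Sall1, Sall2, Sall3, Sall4 and Zbtb16 was not tested.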

How the data were processed

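The authors deposited raw whole-number read counts per gene symbol for 4 libraries. STAR 2.7.9a, HTSeq and DESeq2 3.16 and the build mm10 are named per the submitters' processing notes, and annotation and strand setting are not given in the sources used here. Even numbers made up 72.8% to 75.6% of counts from 1 to 10, as arises if each mate of a pair adds a count. The counts printed here may therefore be about 2 times the fragments sequenced, and halved counts were tried as an alternative. Groups and replicate numbers came from the sample titles, and 0 sample columns were left unused.

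Genes were kept by filterByExpr, scaled by TMM and tested with edgeR 4.0.16 in R 4.3.3 (quasi-likelihood, two-sided, Benjamini-Hochberg over all 14610 genes, threshold 0.05, 2 residual degrees of freedom). The code was tested on simulated counts. Alternatives used limma 3.58.1, DESeq2 1.42.0, other scalings and filters, a replicate block and each library left out. Exon lengths and coding starts came from GENCODE M21.

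The members and lists were chosen with earlier results of these data known. Named genes are the members, up to 2 called genes per list and direction with mean CPM of at least 1, 22 fixed genes, and the 3 nearest patterns per member. Some genes that met this rule are not reported here.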

Additional observations from a re-analysis of the deposited data

How the results depend on the processing

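The 5 members kept their direction and stayed called by each of the 9 other settings and in each of the 4 fits that left out a library. In those fits the lone library of a group is assumed to vary like the other group (1 residual degree of freedom). Their log2 fold changes ranged from 0.39 to 0.72 for Sall1, -0.44 to -0.36 for Sall2, 0.69 to 1.20 for Sall3, 1.06 to 1.26 for Sall4 and -2.43 to -1.70 for Zbtb16. The labels give same-numbered libraries only a shared number, and whether they shared embryos or a sort is not stated. Their deviations correlated at 0.064 across genes, and Sall1, Sall3 and Zbtb16 were higher in replicate 2 of both groups. With the replicate block 3586 genes were called in place of 3351, all 5 members among them (Sall1 0.55, Zbtb16 -2.06), Klf9 was gained (adjusted p 0.0194) and Zbtb34 lost (0.0566). Leaving out a library gave 2009 (without anterior replicate 2) to 3697 calls. Of all calls, 46.5% were higher in anterior cells, and 39.1% with upper-quartile factors. With the longest transcript as length, Sall2 measured 17.9 and 23.7 and anterior Sall4 14.3 CPM per kb. Sign changes were confined to uncalled named genes near 0: Chd4 (-0.0153 with library size alone, -0.0219 with upper-quartile factors, -0.0453 to 0.0828 with a library left out), Rbbp4 (-0.000159 and -0.00693 with those scalings), Crbn (-0.341 to 0.0483) and Pitx1 (-0.125 to 0.0433) with a library left out. The cause was not tested. Depth did not limit the members, all far above 3 counts.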

Other observations

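Sall4 is best known outside the limb as a partner of the pluripotency factors, and the RNA-binding genes Lin28a and Lin28b, which hold back let-7 processing, were the members of that list called, both higher in anterior cells as Sall4 was. Lin28a measured 19.9 and 28.0 CPM in anterior and 10.2 and 16.1 CPM in central cells (log2 fold change 0.86 ± 0.23 SE, edgeR adjusted p 0.0273), and Lin28b 126 and 153 against 94.0 and 107 CPM (0.48 ± 0.10, adjusted p 0.0117). Both calls were lost without anterior replicate 2, at 0.60 (adjusted p 0.109) and 0.34 (adjusted p 0.0758). Of the 10 genes listed 4 were tested and 2 called (50%, against 22.9% of all tested genes). Higher levels in anterior cells were called for 10.7% of all tested genes. Prdm1, a zinc finger repressor of germ cell precursors that was named after its values were seen, lay the other way, with 160 and 54 counts in anterior against 233 and 208 in central libraries (log2 fold change -1.07, edgeR adjusted p 0.0864). It was called lower with DESeq2 (adjusted p 0.049), without a filter (0.0176), with the replicate block (0.0124), without anterior replicate 1 (0.00137) and without central replicate 2 (0.0319). Pou5f1 had 2 counts in 1 central library and none elsewhere, and Nanog was at 0 in every library.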
